A study of Mus musculus with 12 samples.

Results

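Translation factors are the proteins that bring the initiator tRNA, the mRNA and the ribosome together and then drive the ribosome along the message. The genes described here are those whose single symbol in the MG_U74Av2 array annotation starts with Eif or Eef and a digit, the eukaryotic initiation factors (eIF) and elongation factors (eEF) with the enzymes and binding proteins named after them. The rule used names alone and found 66 probe sets of 49 genes, of 8251 genes with such a single symbol among the 12488 probe sets of the array. A probe set is a group of short oligonucleotides that read 1 transcript. Of the 66, 58 probe sets of 46 genes were bright enough to be tested, and 8 were not. Among the latter, the probe sets of Eif4enif1, Eif4h and Eef1g were the genes' sole probe sets. One further probe set carries Eif4a3 together with other symbols and was left out. A control mean above 2000 signal units marked 12 probe sets as bright, each of a different gene. Just inside that mark lay Eif3m at 2157 and Eif1ax at 2186, and just outside it Eif3b at 1875.

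In initiation, eIF2 bound to GTP carries the initiator tRNA to the small ribosomal subunit, where eIF1, eIF1A, eIF3 and eIF5 take part in scanning and in the choice of the start codon. eIF5 makes eIF2 hydrolyse its GTP, eIF2B reloads it, and stress kinases that phosphorylate the eIF2 alpha subunit block that reloading. The eIF4 group binds the cap and unwinds the 5′ leader. In elongation, eEF1A delivers aminoacyl-tRNAs, an exchange complex that includes the products of Eef1b2 and Eef1d recharges it, and eEF2 moves the ribosome by 1 codon at a time. Oxidants are known to slow translation through the eIF2 kinases and eEF2 kinase, whose activity an RNA array does not read.

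RNA came from clone C2, a single clone of the mouse embryonic stem cell line E14tg2a with targeted recognition sites for the endonuclease I-SceI; all 12 samples carry these sites. Controls were held in phosphate-buffered saline (PBS, n = 3). Low-dose cells received 100 µM hydrogen peroxide in PBS for 15 min (n = 4) and high-dose cells 5 mM for 30 min (n = 5), and both recovered for 1 h in maintenance medium. The 2 doses thus differ in exposure time as well, and the labels give neither the time in PBS nor the recovery of the controls, so these effects cannot be told apart from that of the peroxide. Nothing says that replicates were separate cultures; the p-values then describe the spread among these samples alone, which can be technical.

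Values are MAS5 signals on a linear scale, and their number of arrays limits the precision. They are compared between samples for 1 probe set at a time; where a gene has several tested probe sets, brighter and dimmer (by control mean) serve only to name them. Changes are differences of log2(signal + 10.1), with standard errors (SE) and Benjamini-Hochberg adjusted p from limma over all 8695 tested probe sets; a change with an adjusted p under 0.05 is called. Log2 values of arrays of the same group correlated across probe sets at r = 0.967 to 0.981 and those of different groups at 0.945 to 0.969, with probe sets as points that are not independent. The brightest probe set read 7206 to 8904 on the control arrays, 14976 to 24225 at the low and 19733 to 34685 at the high dose. The ratio of the 3′ to the 5′ control probe set of Actb, a sign of RNA quality, was 1.995, 0.871 and 0.921 on the control arrays, 1.11 to 1.49 at the low and 1.05 to 1.49 at the high dose; control replicate 1 stood above and the other 2 controls below all treated arrays, and the part of this in the results was not tested. The embryonic stem cell genes Pou5f1 and Nanog had control means of 4319 and 3461, and 11 of 12 listed genes of this type were measured, with sums of 28646 to 31875, 34279 to 40476 and 32519 to 37616 signal units in the control, low-dose and high-dose arrays. At the low dose 4 of the 11 rose, Klf4 (1.49), Nanog (0.71), Sox2 (0.61) and Dppa5a (0.54), and 2 fell, Utf1 (-0.89) and Dppa4 (-0.57); at the high dose Dppa5a (0.66) and Nanog (0.51) were higher and Fgf4 (-0.58) lower. Primitive endoderm markers, of which 19 of 20 were measured and tested, moved with the high dose: 13 fell, 1 rose and 5 did not pass, while at the low dose 6 rose and 1 fell. Their sums were 12683 to 18726, 17801 to 19530 and 13127 to 15809, of which Apoe, the 1 that rose at the high dose (1.09), made up much. Without Apoe, left out after its values were seen, the other 18 summed to 7787 to 12439, 11037 to 12168 and 1914 to 2091, so that the high-dose arrays lay below all others. Fibroblast (feeder) markers summed to 1335 to 1655, 1599 to 2062 and 1349 to 1777 over 15 genes, 5 of them below the filter; at the low dose Fn1 rose (0.68) and Thy1 fell (-1.66). No listed marker was below the offset on all arrays. The part of these cell types in the results below was not tested, and in bulk RNA fewer cells of a type and less RNA per cell cannot be told apart.

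Against the controls, 16 of the 58 tested factor probe sets were called at the low dose, 6 higher and 10 lower, which is 27.6% beside 24% of all tested probe sets. The higher share was 10.3% beside 12.8% of all, and the lower share 17.2% beside 11.2%. At the high dose 12 were called, 7 higher and 5 lower, or 20.7% beside 11.7% of all probe sets (5.68% higher and 6.03% lower). Between the doses 24 were called, 17 higher at the high dose and 7 lower, or 41.4% beside 27.4% of all (12.8% higher and 14.6% lower). The 3 comparisons share arrays in pairs. The median log2 changes of the 58 were 0.07 at the low dose, 0.10 at the high dose and -0.01 between the doses, beside 0.08, 0.01 and -0.05 over all tested probe sets. After scaling to a common median, the median change of all tested probe sets moved from 0.08 to -0.09 at the low dose and from -0.05 to 0.05 between the doses, and the split of calls moved to 2 higher and 13 lower at the low dose and to 19 higher and 4 lower between the doses. In all, 29 of the 58 were called in at least 1 comparison and 29 in none. The share of all tested probe sets called in at least 1 comparison was not computed, so this count has no background. At the high dose, 8 of the 12 calls against control were lost when some single array was left out, as were 6 of 16 at the low dose and 7 of 24 between the doses. A block for replicate number lost 13 of the 52 calls, and the lists of lost calls under each gene below leave this setting out. The high-dose count was 6 without control replicate 1 (10.3%, beside 10.5% of all probe sets in the same fit), 5 without control replicate 2 (8.62% beside 5.67%), 4 without control replicate 3 (6.9% beside 6.92%), 5 without high-dose replicate 1 (8.62% beside 8.2%) and 7 without high-dose replicate 4 or 5 (12.1% beside 10% and 8.75%). The high-dose share thus lay near that of all probe sets without control replicate 1, control replicate 3 or high-dose replicate 1. It was also near it under other settings, at 10.3% beside 10.5% after quantile normalization and 8.62% beside 8.88% without the variance trend.

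**Figure D1:**
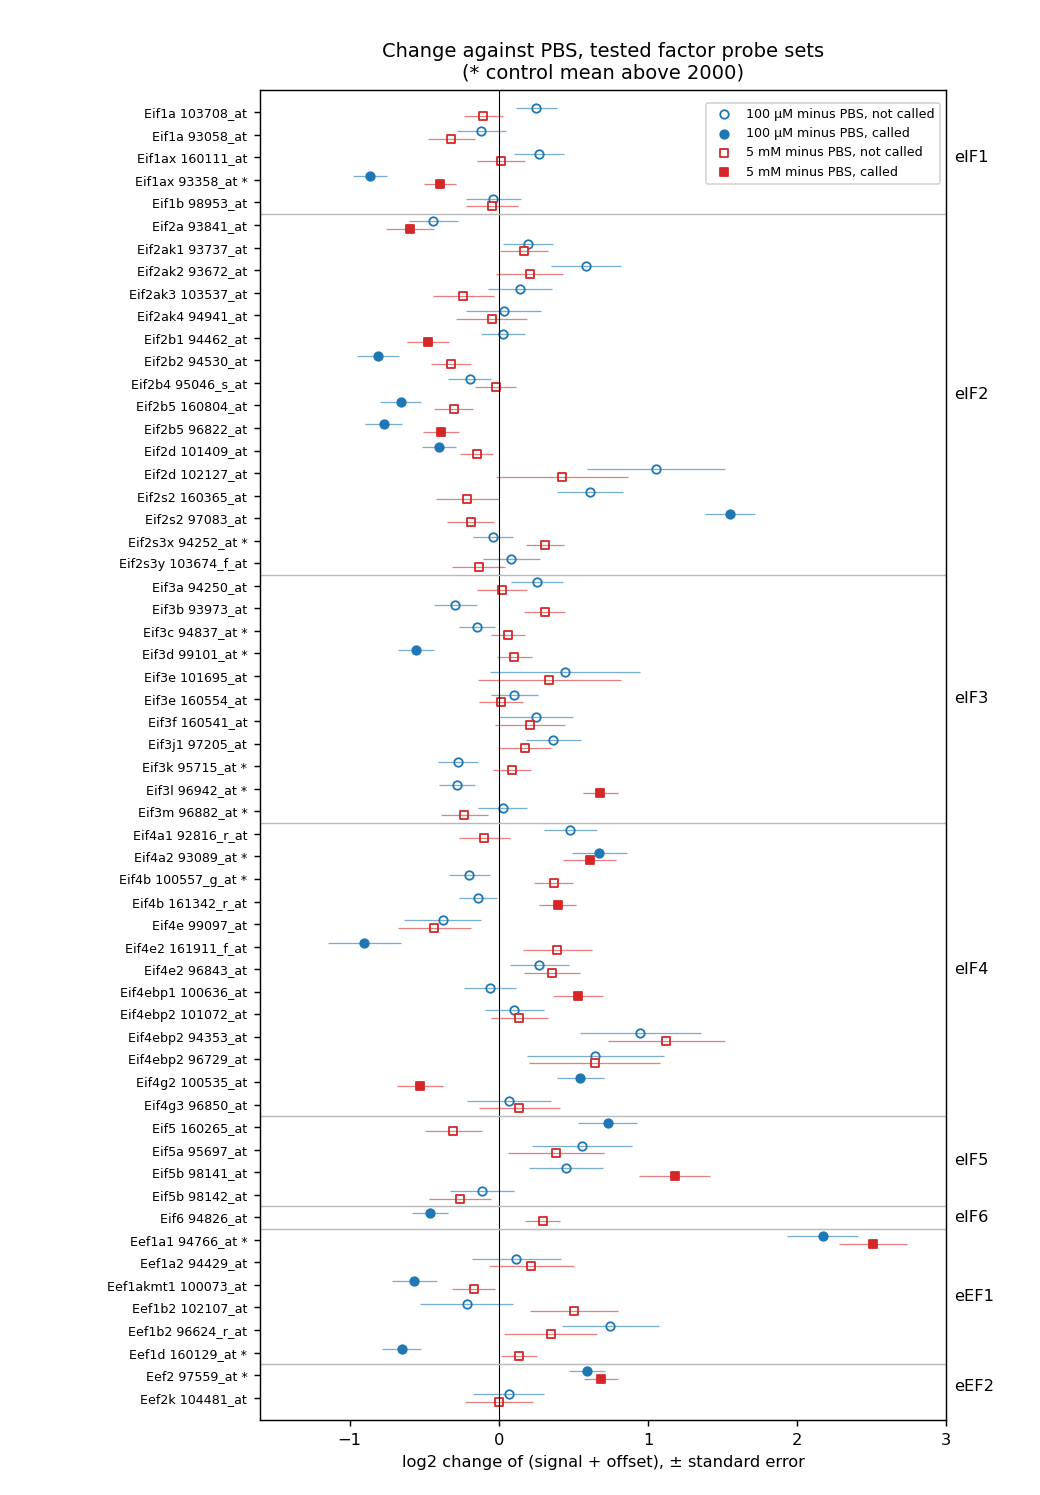
Log2 change (x axis, ± SE) of each of the 58 tested factor probe sets (rows, grouped by factor) at 100 µM (circles, n = 4) and 5 mM (squares, n = 5) against PBS (n = 3); filled marks are called and an asterisk marks a control mean above 2000. Eef1a1 lies far to the right at both doses (2.17 and 2.51), while Eif2s2, Eif4g2 and Eif5 lie to the right at 100 µM and to the left at 5 mM.

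Of the 12 bright factor probe sets, 4 were called higher at the high dose and 1 lower, a higher share of 33.3% beside 29% of all 420 tested probe sets with a control mean above 2000 (3.1% were lower, and 32.1% called in either direction). At the low dose 3 were called higher and 3 lower, each 25%, beside 23.6% and 18.1% of the bright probe sets (41.7% in either direction). Between the doses 7 of the 12 were called, all 7 higher at the high dose, or 58.3% beside 33.8% (5.48% lower and 39.3% in either direction). Among the 46 dimmer factor probe sets, 3 were higher and 4 lower at the high dose (6.52% and 8.7%, beside 4.5% and 6.18% of dimmer probe sets), and 3 higher and 7 lower at the low dose (6.52% and 15.2%, beside 12.2% and 10.9%). Between the doses 10 were higher and 7 lower (21.7% and 15.2%, beside 11.7% and 15.1%). In either direction the dimmer background was 10.7%, 23.1% and 26.8% at the high dose, the low dose and between the doses. The top end of the treated arrays, given above, was brighter at both doses. At the high dose and between the doses more bright factor probe sets were called higher than lower, while at the low dose the split was 3 and 3. The part of the top end in these counts was not tested.

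**Figure D2:**
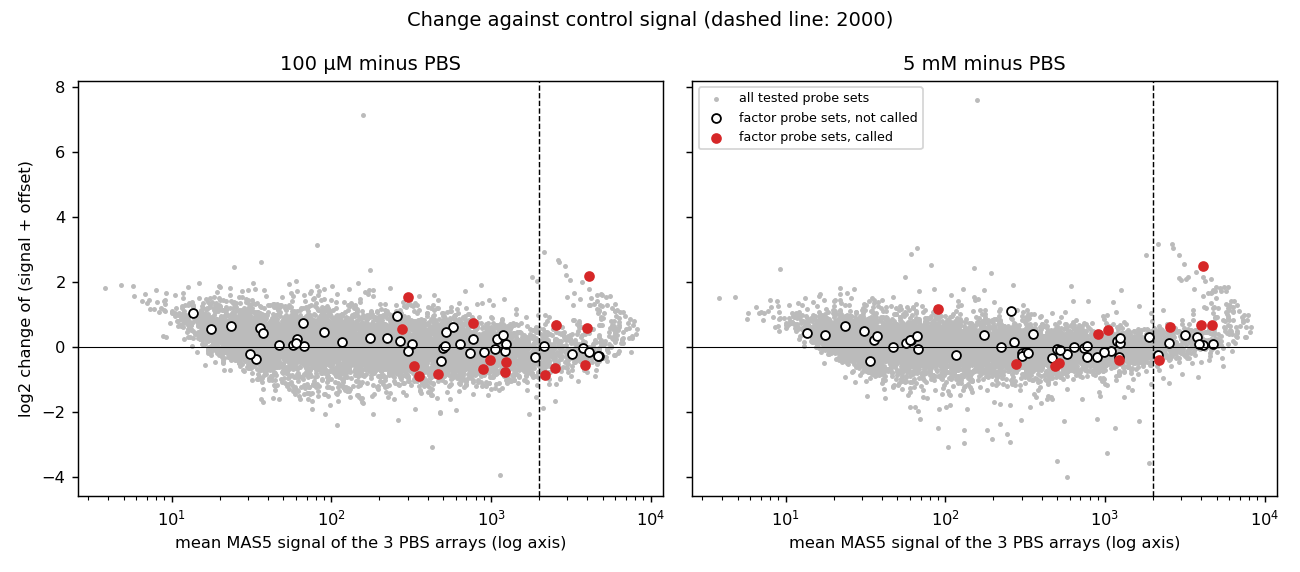
Log2 change at 100 µM (left) and 5 mM (right) against the mean PBS signal (log axis) for all 8695 tested probe sets (grey) and the 58 factor probe sets (circles, red where called); the dashed line marks 2000. Of the 420 probe sets above 2000, 99 were called higher and 76 lower at 100 µM, and 122 higher and 13 lower at 5 mM. Over all 420 the median change is 0.01 at 100 µM and 0.21 at 5 mM.

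The annotated transcription starts of 6 of these genes are shown as examples of 3 patterns described below, and other members with like or wider changes are not shown: Eef1a1 and Eef2 were higher at both doses, Eif2s2 and Eif5 at the low dose, and Eif2b2 and Eif2b5 were lower at the low dose. Each run holds 100 bases before the start and 15 from it, 5′ to 3′ on the gene's strand, from RefSeq promoter entries of build GRCm38.p6, which matched 41 of the 49 genes. Capitals mark matches to the searched letters.
Eef1a1 (chr9:78481710-78481824, minus strand): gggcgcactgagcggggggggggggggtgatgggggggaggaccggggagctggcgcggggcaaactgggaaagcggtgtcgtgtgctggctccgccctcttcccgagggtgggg
Eef2 (chr10:81176531-81176645, plus strand): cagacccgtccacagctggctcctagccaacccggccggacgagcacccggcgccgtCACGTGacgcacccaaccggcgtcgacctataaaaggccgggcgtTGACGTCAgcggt
Eif2s2 (chr2:154892892-154893006, minus strand): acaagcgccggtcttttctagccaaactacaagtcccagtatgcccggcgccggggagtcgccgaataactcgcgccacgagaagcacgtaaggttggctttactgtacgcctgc
Eif5 (chr12:111538001-111538115, plus strand): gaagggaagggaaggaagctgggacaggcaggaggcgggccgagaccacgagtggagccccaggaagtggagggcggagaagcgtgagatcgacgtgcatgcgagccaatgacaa
Eif2b2 (chr12:85219381-85219495, plus strand): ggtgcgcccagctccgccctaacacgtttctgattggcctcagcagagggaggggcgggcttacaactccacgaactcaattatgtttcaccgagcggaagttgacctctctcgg
Eif2b5 (chr16:20498717-20498831, plus strand): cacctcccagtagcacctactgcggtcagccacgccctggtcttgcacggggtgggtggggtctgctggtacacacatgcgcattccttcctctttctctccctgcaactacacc
On both strands of each 300-base entry (250 before the start and 50 after), 3 motifs were searched: CACGTG (the E-box bound by Myc and related factors), TGACGTCA (the cyclic AMP response element) and CCGGAAGT (a site of ETS factors). CACGTG occurred in entries of 10 of the 41 genes, or 24.4%, beside 8.09% of the 27025 genes in the table. These 27025 genes were not limited to those on the array, and no share over array or tested genes was computed for any motif. The holders were Eef2, Eef2k, Eif1b, Eif3a, Eif3f, Eif3k, Eif4a1, Eif4e, Eif4h and Eif5a. CCGGAAGT occurred in 8 of 41, or 19.5%, beside 4.31%, and TGACGTCA in Eef2 alone, 2.44% beside 2.03%. The CCGGAAGT holders were Eef1b2, Eif2ak1, Eif2b2, Eif2b4, Eif3d, Eif3l, Eif4e2 and Eif5a. In Eif2b2 the match lies outside the printed run. In the Eef2 run, CACGTG begins 43 bases before the start and TGACGTCA at base 3 from it, without overlap. Of the CACGTG holders with a tested probe set, Eef2 was called higher at both doses. Called between the doses only were Eif3k, higher at the high dose, and Eif4a1, lower at the high dose. The others were called in no comparison. Of the CCGGAAGT holders, Eif2b2, Eif3d and Eif4e2 (brighter probe set) were called lower at the low dose. Eif3l was called higher at the high dose. These genes were also called higher at the high than at the low dose. The remaining CCGGAAGT holders were called in no comparison. A match is a description of letters and shows no binding.

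The eIF1 group helps the ribosome pick the start codon, and eIF1A, read here through Eif1a and its X-linked paralog Eif1ax, binds beside eIF1. The group had 5 tested probe sets of 3 genes. By its bright probe set, Eif1ax fell at both doses and more at the low one. This probe set read 2456, 2039.8 and 2061 on the PBS arrays, 1135, 1297, 1191 and 1159 on the 100 µM arrays and 1804, 1562, 1751, 1595 and 1589 on the 5 mM arrays. The 3 groups did not overlap, with the controls highest and the low dose lowest. The log2 change was -0.86 ± 0.11 (SE; adjusted p = 0.000109) at the low dose, a 1.82-fold fall, and -0.39 ± 0.11 (adjusted p = 0.029) at the high dose, with the high dose 0.47 above the low one (adjusted p = 0.00228). The high-dose call was lost without control replicate 1, 2 or 3 (adjusted p = 0.103, 0.0581 and 0.0557) or high-dose replicate 2, 4 or 5 (0.0521, 0.0525 and 0.0577), and also after scaling to a common median (adjusted p = 0.0599) and without the variance trend (0.0623). The dimmer probe set of Eif1ax, with means of 223 ± 14.6 (SD, n = 3), 272 ± 23.0 (n = 4) and 229 ± 48.3 (n = 5), was not called and had values of 0.27 and 0.02, so the 2 probe sets of this gene disagree at the low dose.

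Eif1a was lower at the high dose than at the low dose by 1 of its 2 probe sets. The dimmer of these read 1196, 1064 and 1002 on the PBS arrays, 1118, 1455, 1539.6 and 1119 on the 100 µM arrays and 939.6, 1162, 972, 989 and 991 on the 5 mM arrays. The low-dose arrays overlap the others, and low-dose replicates 2 and 3 stand highest. The difference between the doses was -0.36 ± 0.12 (adjusted p = 0.0367). The call was lost without low-dose replicate 2 or 3 (adjusted p = 0.114 and 0.13) or high-dose replicate 1, 3, 4 or 5 (0.0821, 0.0716, 0.0641 and 0.0636), and also after scaling to a common median (adjusted p = 0.259) and without the variance trend (0.0698). The brighter probe set gave -0.20 and was not called. Eif1b, a close relative of eIF1, had values of -0.04 at the low and -0.04 at the high dose, and neither was called.

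The eIF2 group, with 16 tested probe sets of 13 genes, had calls in both directions at the low dose, as had the eIF4 and eEF1 groups. The transcript of Eif2s2, the beta subunit of eIF2, rose 2.93-fold at the low dose by 1 of its 2 probe sets, while those of Eif2b2 and Eif2b5, the beta and epsilon subunits of its exchange factor eIF2B, fell. In all, 1 probe set rose and 4 fell at the low dose (31.2% called, beside 24% of all probe sets), and 3 fell at the high dose (18.8% beside 11.7%), with medians of 0.03 and -0.17. Between the doses 43.8% were called, beside 27.4%. The dimmer of the Eif2s2 probe sets read 291, 269.9 and 347 on the PBS arrays, 992, 776, 1037 and 822 on the 100 µM arrays and 308, 291, 195, 289.6 and 248 on the 5 mM arrays. All 4 low-dose arrays lie far above every other array, and the high-dose arrays overlap the controls. The low-dose change was 1.55 ± 0.17 (adjusted p = 1.79e-05). The high dose was -1.74 ± 0.15 from the low dose (adjusted p = 4.95e-07), 3.33-fold lower, and -0.19 from the controls, which was not called.

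The brighter Eif2s2 probe set read 702, 555 and 470.4 on the PBS arrays, 980.3, 670.1, 975 and 902 on the 100 µM arrays and 443, 823, 429.7, 389 and 459.6 on the 5 mM arrays. Its high-dose replicate 2 stood apart from the other high-dose arrays, and its low-dose replicate 2 lay within the control range. Between the doses a difference was called, at -0.82 ± 0.19 (adjusted p = 0.00496), while the low-dose value of 0.61 ± 0.22 was not (adjusted p = 0.0559). Among the settings that called it were those without control replicate 1 (0.76, adjusted p = 0.0379), low-dose replicate 2 (0.73, 0.0342) or high-dose replicate 2 (0.61, 0.013), quantile normalization (0.66, 0.0499), the filter at the 50th percentile (0.0479), array weights (0.71, 0.0116) and a fit to the compared groups only (0.0329). The gamma subunit that binds GTP is encoded on both sex chromosomes. The bright X-linked gene Eif2s3x read 4063, 3625 and 3677 on the PBS arrays, 3082, 4178, 4068 and 3514 on the 100 µM arrays and 5138, 5154, 4408, 4649 and 4184 on the 5 mM arrays. All 5 high-dose arrays lay above the other 7. The difference between the doses was 0.35 ± 0.12 (adjusted p = 0.0346). The call was lost without low-dose replicate 1 or 4 (adjusted p = 0.124 and 0.0797) or high-dose replicate 1, 2 or 4 (0.0797, 0.0701 and 0.0543), and also after quantile normalization (log2 change 0.13, adjusted p = 0.288), without the filter (0.0544) and without the variance trend (0.0623). The Y-linked Eif2s3y, on a probe set whose suffix (_f) marks oligonucleotides shared by related sequences, was not called, with values of 0.09 and -0.14.

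**Figure D3:**
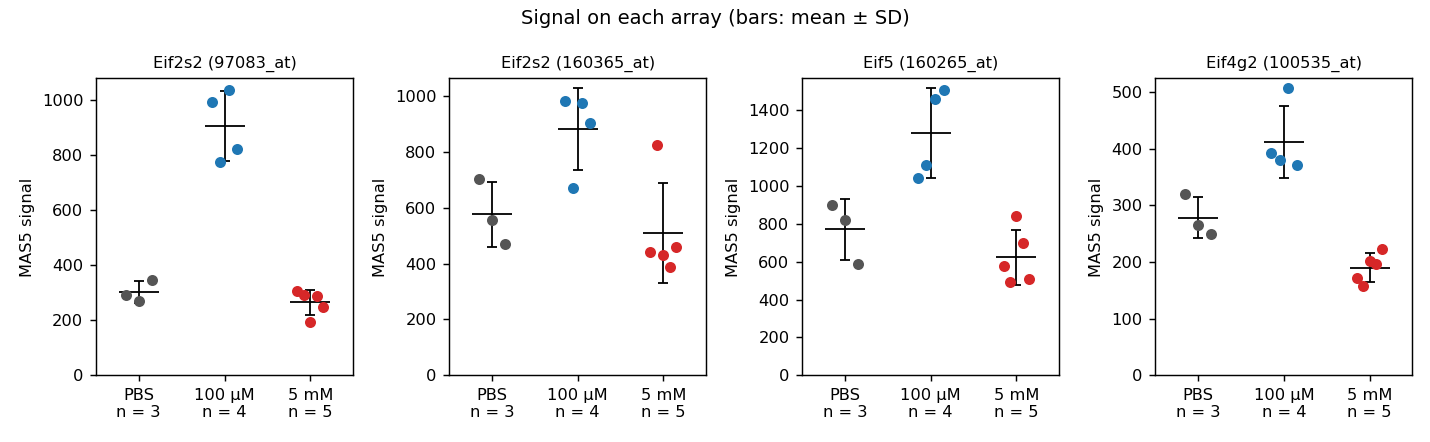
MAS5 signal on each array (points; bars are mean ± SD) for both probe sets of Eif2s2 and for Eif5 and Eif4g2, in PBS (n = 3), 100 µM (n = 4) and 5 mM (n = 5). The 100 µM points stand above all others for the dimmer probe set of Eif2s2 (first panel), Eif5 and Eif4g2, and overlap them for the brighter Eif2s2 probe set.

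eIF2B reloads eIF2 with GTP and is a complex of alpha to epsilon subunits; its probe sets differed among themselves. Eif2b2 read 440.2, 529 and 433 on the PBS arrays, 274, 283, 245 and 242 on the 100 µM arrays and 323, 380.3, 389, 329.6 and 442 on the 5 mM arrays. The low-dose arrays lie below all others, and the high-dose arrays overlap the controls. The change was -0.81 ± 0.14 at the low dose (adjusted p = 0.000849), a 1.76-fold fall, and the high dose lay 0.49 ± 0.12 above the low dose (adjusted p = 0.00734). Against the controls the high dose gave -0.32 and was not called. Eif2b5, the catalytic epsilon subunit, fell by both of its probe sets. The brighter read 1310.3, 1166 and 1185 on the PBS arrays, 727, 706, 595 and 830.4 on the 100 µM arrays and 876, 1024, 963, 853 and 945 on the 5 mM arrays. The 3 groups did not overlap, and the low dose was the lowest. The log2 change was -0.77 ± 0.13 (adjusted p = 0.00052) at the low and -0.39 ± 0.12 (adjusted p = 0.048) at the high dose, and the high dose lay 0.39 ± 0.11 above the low dose (adjusted p = 0.0159). The high-dose call was lost without control replicate 1, 2 or 3 (adjusted p = 0.127, 0.101 and 0.102), low-dose replicate 1 or 2 (0.058 and 0.0581) or high-dose replicate 1, 3, 4 or 5 (0.0986, 0.0652, 0.091 and 0.0758), and also after quantile normalization (adjusted p = 0.0759), without the filter (0.0572) and without the variance trend (0.0884). The call between the doses was lost without low-dose replicate 3 (adjusted p = 0.0634).

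The dimmer probe set of Eif2b5 read 796, 1009 and 872 on the PBS arrays, 578, 484, 507 and 692 on the 100 µM arrays and 639, 746, 749.7, 731 and 729.9 on the 5 mM arrays. The low-dose arrays were below the controls, and low-dose replicate 4 reached into the high-dose range. Its change was -0.66 ± 0.14 at the low dose (adjusted p = 0.00311) and -0.30 at the high dose, which was not called, with 0.35 ± 0.12 between the doses (adjusted p = 0.0379). The last call was lost without low-dose replicate 1, 2 or 3 (adjusted p = 0.0608, 0.126 and 0.108) or high-dose replicate 2, 3, 4 or 5 (0.0649, 0.0751, 0.0659 and 0.065), and also without the variance trend (adjusted p = 0.0674). Eif2b1, the regulatory alpha subunit that senses phosphorylated eIF2, fell at the high dose instead. It read 462, 449.9 and 626 on the PBS arrays, 484, 586, 506 and 495 on the 100 µM arrays and 347, 303, 405, 412 and 352 on the 5 mM arrays. All 5 high-dose arrays lay below every other array, and control replicate 3 was the highest. The high-dose change was -0.48 ± 0.14 (adjusted p = 0.0402) and the difference from the low dose -0.50 ± 0.13 (adjusted p = 0.00887), while the low-dose value was 0.03. The high-dose call against control was lost without control replicate 2 or 3 (adjusted p = 0.0596 and 0.212) or high-dose replicate 1, 2 or 5 (0.0787, 0.0785 and 0.0738), and also after quantile normalization (adjusted p = 0.0857), without the filter (0.0501), without the variance trend (0.0692) and with only the compared groups in the fit (0.0633). The call between the doses was lost after scaling to a common median (adjusted p = 0.0669). Eif2b4, the delta subunit, was not called, at -0.19 and -0.02.

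eIF2A and eIF2D are single proteins outside the eIF2 complex that can bring a tRNA to the ribosome by other routes. Eif2a read 571, 419 and 468 on the PBS arrays, 358, 432, 392 and 254 on the 100 µM arrays and 299.8, 309, 330.5, 321 and 319.8 on the 5 mM arrays. The high-dose arrays were tightly grouped and lay below all controls, and the low dose overlapped both. The high-dose change was -0.59 ± 0.16 (adjusted p = 0.0235), and the low-dose value -0.44 was not called (adjusted p = 0.063; called at adjusted p = 0.0373 without low-dose replicate 2). The high-dose call was lost without control replicate 1 or 3 (adjusted p = 0.0891 and 0.0613) or high-dose replicate 1 (0.0505), and also after quantile normalization (adjusted p = 0.0684). The brighter probe set of Eif2d read 984, 982 and 998 on the PBS arrays, 759, 837, 670.2 and 731 on the 100 µM arrays and 836, 952, 962, 880.1 and 829.8 on the 5 mM arrays. The controls lay within a narrow band above all treated arrays. The low-dose change was -0.40 ± 0.11 (adjusted p = 0.0185). The call was lost without control replicate 2 or 3 (adjusted p = 0.0531 and 0.0553) or low-dose replicate 3 (0.0526). The dim probe set of Eif2d, with a control mean of 13.6, was not called and had a value of 1.05.

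The eIF2 alpha kinases, which sense heme and oxidants (Eif2ak1), double-stranded RNA (Eif2ak2), misfolded proteins in the endoplasmic reticulum (Eif2ak3) and uncharged tRNA (Eif2ak4), were each read by 1 probe set, and none was called in limma in any comparison. At an unadjusted limma p under 0.05, 1 of 4 passed at the low dose (Eif2ak2), 0 of 4 at the high dose and 0 of 4 between the doses. The share of all probe sets under this mark was not computed. Under the stricter adjusted mark, 24% of all tested probe sets were called at the low dose. Eif2ak2 read 27.0, 42.3 and 37.3 on the PBS arrays, 62.3, 51.9, 66.1 and 51.8 on the 100 µM arrays and 37.1, 40.9, 31.1, 50.7 and 53.7 on the 5 mM arrays. Its 4 low-dose arrays lay above all controls, with a value of 0.59 ± 0.23 (adjusted p = 0.0797; called without the variance trend, at 0.0364). The values at the low and high dose were 0.20 and 0.17 for Eif2ak1, 0.14 and -0.24 for Eif2ak3, and 0.03 and -0.05 for Eif2ak4. Without low-dose replicate 4, Eif2ak3 was called lower at the high than at the low dose (-0.54, adjusted p = 0.0415, against -0.38 with all arrays).

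**Figure D4:**
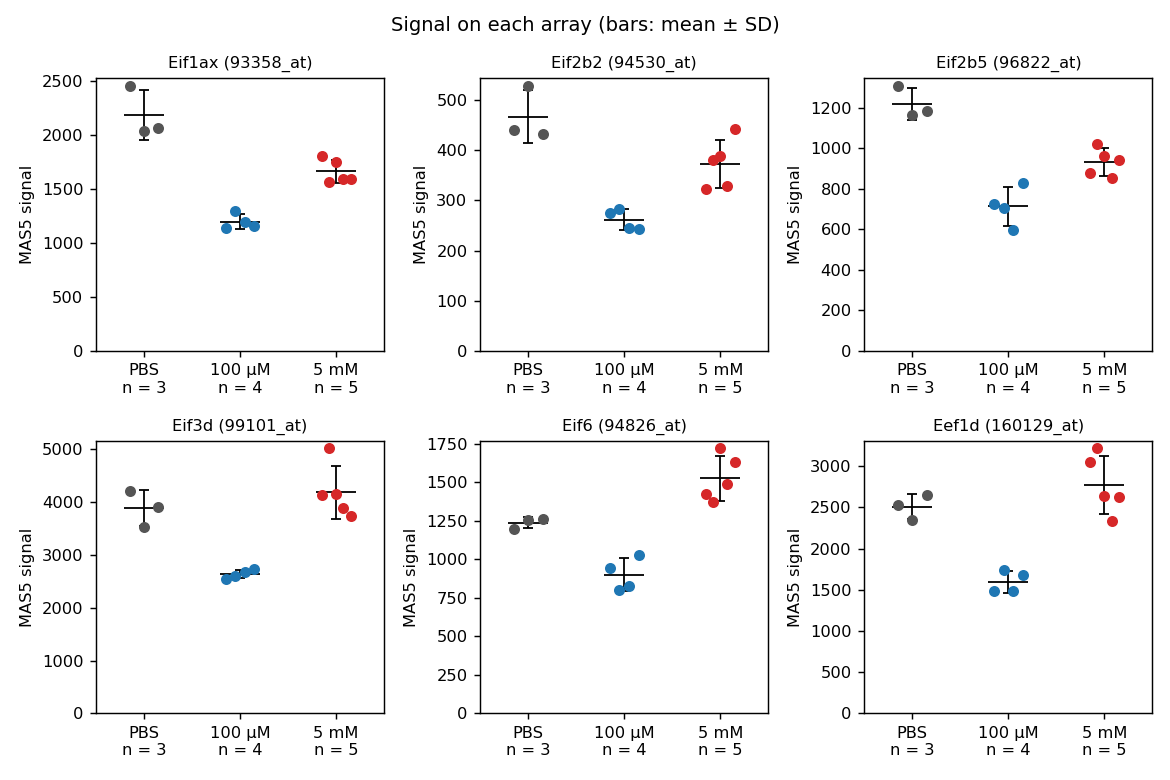
MAS5 signal on each array (points; bars are mean ± SD) for Eif1ax, Eif2b2, Eif2b5, Eif3d, Eif6 and Eef1d in PBS (n = 3), 100 µM (n = 4) and 5 mM (n = 5). In each panel all 4 points at 100 µM lie below all 3 PBS points and all 5 points at 5 mM.

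eIF3, the large scaffold that holds the small subunit together with the mRNA and the other factors, had 11 tested probe sets of 10 genes, 5 of them bright. At the low dose 1 fell (9.09% called, beside 24% of all probe sets), at the high dose 1 read higher (9.09% beside 11.7%), and between the doses 4 were higher at the high dose (36.4% beside 27.4%), with medians of 0.03, 0.10 and -0.04. Eif3d, a subunit that can bind caps, fell at the low dose. Its bright probe set read 4216, 3535 and 3906 on the PBS arrays, 2547, 2596, 2682 and 2731 on the 100 µM arrays and 4140.0, 5034, 4148, 3893 and 3734 on the 5 mM arrays. The low-dose arrays lay close together below all others, and the high-dose arrays overlapped the controls. The change was -0.55 ± 0.12 (adjusted p = 0.00458), a 1.47-fold fall, and the high dose lay 0.66 ± 0.11 above the low dose (adjusted p = 0.000291). The fall was also called after quantile normalization (-0.70, adjusted p = 9.03e-05) and with common median scaling (-0.74, 0.00348).

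Eif3l, a subunit of the eIF3 core, read higher at the high dose than in the controls or at the low dose. Its bright probe set gave 5046, 3976 and 4902 on the PBS arrays, 3922, 3472, 3886 and 3967 on the 100 µM arrays and 7342, 7838, 7439, 6850.4 and 7600.0 on the 5 mM arrays. The groups did not overlap, although the highest low-dose array came close to control replicate 2. The high-dose value was 0.68 ± 0.12 (adjusted p = 0.00123), or 1.60-fold, and the difference between the doses 0.96 ± 0.11 (adjusted p = 7.53e-06). The high-dose call against control was lost after quantile normalization (log2 change 0.13, adjusted p = 0.535). The low-dose value of -0.28 was not called, but it was -0.58 (adjusted p = 0.00334) after quantile normalization and -0.47 (0.0385) with common median scaling. Between the doses it gave 0.70 after quantile normalization (adjusted p = 1.71e-04). A dim probe set of Eif3l was not tested.

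Eif3b, a scaffold subunit that binds several others, lay just under the mark for bright probe sets; its other probe set was not tested. It read 2101, 1818 and 1707 on the PBS arrays, 1427, 1605, 1385 and 1704 on the 100 µM arrays and 2285, 2966, 2129, 1961 and 2345 on the 5 mM arrays. The low-dose arrays lay below all others, and the high-dose arrays overlapped the controls. The difference between the doses was 0.60 ± 0.13 (adjusted p = 0.00205), while the values against the controls, -0.29 and 0.31, were not called; after scaling to a common median the low-dose value was called (-0.48, adjusted p = 0.0466). The bright Eif3k read 5234, 4263 and 4644 on the PBS arrays, 3509, 4451, 3720.0 and 3887 on the 100 µM arrays and 5467, 5552, 5014, 4159 and 4886 on the 5 mM arrays. All groups overlap, and the high-dose mean was the highest. The difference between the doses was 0.36 ± 0.12 (adjusted p = 0.0298). The call was lost without low-dose replicate 1, 3 or 4 (adjusted p = 0.0892, 0.0744 and 0.0552) or high-dose replicate 1, 2 or 3 (0.0695, 0.063 and 0.0555), and also after quantile normalization (log2 change 0.12, adjusted p = 0.384) and without the variance trend (0.0543). Against the controls its high-dose value was 0.09 with the deposited scaling and -0.53 after quantile normalization (adjusted p = 0.00456), which turns the direction, and its low-dose value went from -0.28 to -0.65 (adjusted p = 6.49e-04).

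The bright Eif3c and Eif3m were not called. Eif3c read 4284, 4029 and 3984 on the PBS arrays, 3804, 3834, 3184 and 4025 on the 100 µM arrays and 3935, 4795, 4368, 4026 and 4296 on the 5 mM arrays, with overlapping groups and values of -0.15 and 0.06. Eif3m read 2360.4, 2050.2 and 2060.3 on the PBS arrays, 2461, 2300.2, 1877 and 2176 on the 100 µM arrays and 2072, 1721, 1745, 2432 and 1362 on the 5 mM arrays, again with overlap and values of 0.03 and -0.23. The remaining subunits with tested probe sets, Eif3a, Eif3e, Eif3f and the loosely bound Eif3j1, had values of 0.10 to 0.45 at the low and 0.01 to 0.34 at the high dose, and none was called, except that Eif3j1 was called at the low dose with array weights (0.49, adjusted p = 0.0368). The widest of these values belong to a dim and variable probe set of Eif3e (control mean 37.2 ± 28.6).

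The eIF4 group, with 13 tested probe sets, holds the cap-binding protein eIF4E, the helicase eIF4A with its helpers, the scaffold eIF4G and the 4E-binding proteins that restrain eIF4E. At the low dose 2 rose and 1 fell (23.1% called, near the 24% of all probe sets), at the high dose 3 were higher and 1 lower (30.8% beside 11.7%), and between the doses 4 were higher and 2 lower at the high dose (46.2% beside 27.4%), with medians of 0.10, 0.37 and 0.07. Eif4g2 is a relative of eIF4G that lacks the part binding eIF4E. It was the 1 factor probe set of 58 called in opposite directions at the 2 doses, a count not made over all probe sets. It read 319.7, 266 and 249 on the PBS arrays, 392, 381, 507 and 371 on the 100 µM arrays and 172, 158, 203, 197 and 223 on the 5 mM arrays. The 3 groups did not overlap, with the low dose highest and the high dose lowest. The log2 change was 0.55 ± 0.16 (adjusted p = 0.0205) at the low and -0.53 ± 0.15 (adjusted p = 0.0341) at the high dose, and the doses differed by -1.08 ± 0.14 (adjusted p = 3.6e-05), or 2.11-fold. The low-dose call was lost without control replicate 2 or 3 (adjusted p = 0.0708 and 0.0864) or low-dose replicate 3 (0.0645), and also after scaling to a common median (log2 change 0.36, adjusted p = 0.159). The high-dose call was lost without control replicate 1, 2 or 3 (adjusted p = 0.117, 0.0858 and 0.0541) or high-dose replicate 1 or 2 (0.0747 and 0.0675), and also after quantile normalization (adjusted p = 0.0733) and without the variance trend (0.0528). The call between the doses was kept without each array, at -1.13 to -0.97.

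The 2 helicase paralogs, Eif4a1 and Eif4a2, each with a sole probe set, gave different calls, and the difference between them was not tested. The probe set of Eif4a1 carries the suffix _r, whose part in its values was not tested. Bright Eif4a2 was higher at both doses and read 2312, 2581 and 2739 on the PBS arrays, 3805, 3946, 5264 and 3429 on the 100 µM arrays and 3799, 2948, 5107, 4618 and 3320.2 on the 5 mM arrays. All treated arrays lay above all controls, with high-dose replicate 2 the nearest. The log2 values were 0.67 ± 0.18 (adjusted p = 0.015) and 0.61 ± 0.18 (adjusted p = 0.0342). The low-dose call was lost without control replicate 1 (adjusted p = 0.0523), and also after scaling to a common median (adjusted p = 0.119). The high-dose call was lost without control replicate 1, 2 or 3 (adjusted p = 0.103, 0.0945 and 0.0678) or high-dose replicate 1, 3 or 4 (0.0585, 0.0703 and 0.0701), and also after quantile normalization (adjusted p = 0.107), after scaling to a common median (0.112), without the filter (0.053) and without the variance trend (0.0692). Eif4a1 read 600.3, 459 and 512 on the PBS arrays, 818, 749.6, 942 and 491 on the 100 µM arrays and 459, 509, 462, 539.6 and 466 on the 5 mM arrays. Low-dose replicates 1, 2 and 3 stood above all other arrays, and replicate 4 did not. Against the controls it was not called at the low dose (0.48, adjusted p = 0.0609; 0.67 and 0.00395 without low-dose replicate 4, and 0.58 and 0.0482 without control replicate 1), and the high dose lay -0.58 ± 0.16 from the low dose (adjusted p = 0.0116). The latter call was lost after scaling to a common median (adjusted p = 0.058).

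Eif4b, which stimulates the helicase, was read alike by its 2 tested probe sets, 1 of them bright and 1 not. The bright one read 3135, 3342 and 3089.5 on the PBS arrays, 3209, 2624, 2532 and 2791 on the 100 µM arrays and 4424, 3679.8, 3986, 5094 and 3591 on the 5 mM arrays, and the other read 853, 931 and 928 on the PBS arrays, 934, 720.2, 863 and 776 on the 100 µM arrays and 1192, 983, 1302, 1325 and 1190.5 on the 5 mM arrays. In both, the high-dose arrays lay above all others. Between the doses the changes were 0.57 ± 0.12 (adjusted p = 0.00223) and 0.54 ± 0.11 (adjusted p = 0.00236). Against the controls the high-dose values were 0.37 ± 0.13 (adjusted p = 0.0794) and 0.40 ± 0.12 (adjusted p = 0.0487). The call of the dimmer probe set was lost without control replicate 1, 2 or 3 (adjusted p = 0.12, 0.113 and 0.105), low-dose replicate 3 or 4 (0.057 and 0.0538) or high-dose replicate 1, 3, 4 or 5 (0.0854, 0.0943, 0.095 and 0.0808), and also after scaling to a common median (adjusted p = 0.154), without the filter (0.0599), without the variance trend (0.0909) and with only the compared groups in the fit (0.0585). Another 2 probe sets of Eif4b were too dim to be tested.

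Among the genes that bind or restrain the cap-binding protein, Eif4ebp1, a 4E-binding protein controlled by mTOR and a known target of the stress factor ATF4, was higher at the high dose. It read 1251, 900.2 and 1000.2 on the PBS arrays, 994, 878, 1329.6 and 854 on the 100 µM arrays and 1691, 1199, 1781, 1575 and 1380.3 on the 5 mM arrays. High-dose replicate 2 fell within the range of the other groups, and the remaining high-dose arrays lay above them. The change was 0.53 ± 0.17 against the controls (adjusted p = 0.0482) and 0.59 ± 0.15 against the low dose (adjusted p = 0.00842). The call against the controls was lost without control replicate 2 or 3 (adjusted p = 0.204 and 0.14), low-dose replicate 1 or 2 (0.0608 and 0.0511) or high-dose replicate 1, 3, 4 or 5 (0.1, 0.0961, 0.0818 and 0.0628), and also after scaling to a common median (adjusted p = 0.16), without the filter (0.0665) and without the variance trend (0.0915). Eif4ebp2 was read by 3 probe sets and not called; the 1 with the widest values read 128, 384 and 263 on the PBS arrays, 438, 486, 270.1 and 807 on the 100 µM arrays and 816, 828, 253, 497 and 469 on the 5 mM arrays, with a high-dose value of 1.12 ± 0.39 (adjusted p = 0.0749) that was 1.38 (0.0245) without high-dose replicate 3.

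Eif4e2, a cap-binding relative of eIF4E that represses translation, was lower at the low dose on the brighter of its 2 probe sets, which has the same suffix for shared oligonucleotides. It gave 402, 221 and 443 on the PBS arrays, 147, 201, 216 and 156 on the 100 µM arrays and 683, 358, 369, 457 and 448 on the 5 mM arrays. All low-dose arrays lay below all others, and the control arrays were spread widely. The low-dose change was -0.90 ± 0.24 (adjusted p = 0.0145), and the high dose lay 1.30 ± 0.21 above the low dose (adjusted p = 0.000315). The low-dose call was lost without control replicate 1 or 3 (adjusted p = 0.0545 and 0.0772). The other probe set of this gene disagreed, with 0.27 at the low dose and no call. Eif4e itself was dim, with 33.6 ± 1.85 in the controls (SD, n = 3), 23.8 ± 4.89 at the low dose (n = 4) and 22.7 ± 6.09 at the high dose (n = 5). Its values of -0.38 and -0.43 were not called, although the controls lay above all treated arrays. The scaffold gene Eif4g3 had values of 0.07 and 0.14, likewise without a call.

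Eif5, the activator of GTP hydrolysis by eIF2, rose at the low dose with Eif2s2. It read 899, 822 and 588 on the PBS arrays, 1043, 1111, 1457 and 1505 on the 100 µM arrays and 577, 494, 839.6, 698 and 510.2 on the 5 mM arrays. The low-dose arrays lay above all others, and the high-dose arrays overlapped the controls. The low-dose change was 0.73 ± 0.20 (adjusted p = 0.0148), or 1.66-fold, and the high dose lay -1.03 ± 0.17 from the low dose (adjusted p = 0.000372), 2.05-fold lower. The low-dose call was lost without control replicate 3 (adjusted p = 0.0849), and also after scaling to a common median (adjusted p = 0.109). Eif5b, the GTPase that joins the ribosomal subunits, was higher at the high dose on the dimmer of its 2 probe sets, which read 90.6, 85.7 and 95.0 on the PBS arrays, 159, 89.1, 149 and 123 on the 100 µM arrays and 264, 301, 129, 239 and 195 on the 5 mM arrays. The high-dose arrays lay above all controls. The change was 1.18 ± 0.24 against the controls (adjusted p = 0.00449), or 2.26-fold, and 0.73 ± 0.22 against the low dose (adjusted p = 0.0205). The latter call was lost without low-dose replicate 2 (adjusted p = 0.0745) or high-dose replicate 1 or 2 (0.052 and 0.0514). The second probe set of this gene, with a control mean of 300.3 ± 93.5, disagreed, with -0.26 and no call. Eif5a, which carries the modified residue hypusine and helps the ribosome through difficult peptide bonds, was dim (control mean 17.5 ± 8.95) and had values of 0.56 and 0.38 without a call.

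Eif6 keeps the large ribosomal subunit from joining too early and takes part in its assembly. Its transcript fell at the low dose. It read 1194, 1257 and 1262 on the PBS arrays, 945, 799, 829 and 1029.7 on the 100 µM arrays and 1423, 1370.4, 1719.8, 1488 and 1632 on the 5 mM arrays. The groups did not overlap, with the low dose lowest and the high dose highest. The low-dose change was -0.46 ± 0.12 (adjusted p = 0.0133), and the high dose lay 0.76 ± 0.11 above the low dose (adjusted p = 8.38e-05). The high-dose value against the controls was 0.30 ± 0.12 and was not called (adjusted p = 0.117).

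Among the elongation factors, Eef1a1, the main carrier of aminoacyl-tRNAs, read higher at both doses by the widest margin of all 58 factor probe sets. It read 4184, 3161 and 4947 on the PBS arrays, 14382, 24225, 22627 and 13892 on the 100 µM arrays and 30204, 29131, 20523, 18612 and 18829 on the 5 mM arrays. Every treated array lay above every control array, and the doses overlapped. The log2 value was 2.17 ± 0.24 at the low dose (adjusted p = 2.25e-05), or 4.51-fold, and 2.51 ± 0.23 at the high dose (adjusted p = 2.52e-06), or 5.68-fold. The doses differed by 0.33 ± 0.21 (adjusted p = 0.261), which was not called. Both calls were kept without each array. After quantile normalization, which gives all arrays the same top end, the values were 1.96 (adjusted p = 2.07e-07) and 1.87 (1.34e-07). With common median scaling they were 1.98 (adjusted p = 0.000141) and 2.43 (1.51e-05). Eef1a1 is itself part of the brighter top end, and on low-dose replicate 2 it was the brightest probe set (24225). On the control arrays 88 to 188 probe sets read brighter than Eef1a1, beside 0 to 1 at the low and 1 to 3 at the high dose. The part of the brighter top end in the change was not tested. The deposited signals do not show whether scanner settings or saturation were alike on control and treated arrays. The fold sizes thus hold on the deposited scale only, while direction and calls were the same under both other scalings.

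**Figure D5:**
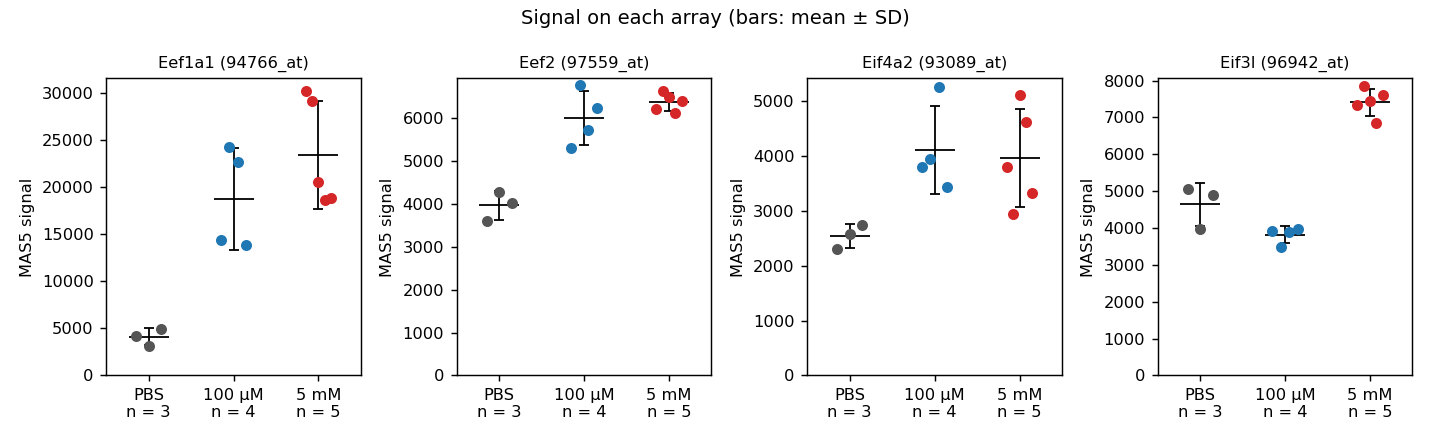
MAS5 signal on each array (points; bars are mean ± SD) for the bright probe sets of Eef1a1, Eef2, Eif4a2 and Eif3l in PBS (n = 3), 100 µM (n = 4) and 5 mM (n = 5). Eef1a1, Eef2 and Eif4a2 are higher at both doses than in all PBS arrays, while Eif3l is higher at 5 mM and not at 100 µM.

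Eef2, the translocase, showed the same order with a narrower spread. It read 3607, 4285 and 4022 on the PBS arrays, 5300.3, 6773, 5719 and 6236 on the 100 µM arrays and 6221, 6636, 6508, 6132 and 6413 on the 5 mM arrays. All treated arrays lay above all controls, and the doses overlapped. The log2 value was 0.59 ± 0.12 (adjusted p = 0.00248) at the low and 0.69 ± 0.11 (adjusted p = 0.00112) at the high dose, or 1.51-fold and 1.61-fold. The low-dose call was lost after quantile normalization (log2 change 0.29, adjusted p = 0.229) and after scaling to a common median (0.0712). The high-dose call was lost after quantile normalization (log2 change 0.20, adjusted p = 0.443). Its kinase gene Eef2k, whose product halts elongation, was dim and had values of 0.07 and 0.00 without a call.

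Eef1d, a subunit of the exchange complex of eEF1A, fell at the low dose. Its bright probe set read 2524, 2353 and 2654 on the PBS arrays, 1486, 1737, 1479 and 1684 on the 100 µM arrays and 3049, 3216, 2637, 2333 and 2625 on the 5 mM arrays. The low-dose arrays lay below all others, and the high-dose arrays overlapped the controls. The change was -0.65 ± 0.13 (adjusted p = 0.00205), a 1.57-fold fall, and the high dose lay 0.79 ± 0.11 above the low dose (adjusted p = 8.44e-05). The fall was -0.67 after quantile normalization (adjusted p = 3.89e-04). Eef1akmt1, a methyltransferase that modifies eEF1A, fell as well and read 323, 357 and 309.6 on the PBS arrays, 222, 183, 231 and 244 on the 100 µM arrays and 262, 246, 325, 299 and 337 on the 5 mM arrays. Low-dose arrays lay below all others. The change was -0.57 ± 0.15 (adjusted p = 0.0126), and the high dose lay 0.40 ± 0.13 above the low dose (adjusted p = 0.0325). The low-dose call was lost without control replicate 2 (adjusted p = 0.0583). The call between the doses was lost without low-dose replicate 1 or 2 (adjusted p = 0.057 and 0.111) or high-dose replicate 3, 4 or 5 (0.0763, 0.0592 and 0.0757). Eef1a2, the paralog of Eef1a1 known from muscle and nerve, was dim, with 60.0 ± 18.3 in the controls, and its values of 0.12 and 0.22 were not called. The 2 probe sets of Eef1b2, dimmer one first, were also dim and not called, with -0.21 and 0.75 at the low and 0.50 and 0.35 at the high dose. Between the doses the value of the dimmer one, 0.72, became 0.99 (adjusted p = 0.00869) without low-dose replicate 1 and was also called after quantile normalization (0.80, 0.0291) and with common median scaling (0.81, 0.0316).

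Of 55 other listed genes of translation and its control, 36 were on the array, each taken by its brightest probe set, and all were tested. At the low dose 7 rose, 8 fell and 21 did not pass (41.7% called, beside 24% of all probe sets), at the high dose 5 were higher and 2 lower (19.4% beside 11.7%), and between the doses 5 were higher and 4 lower at the high dose (25% beside 27.4%). The median changes were 0.08, 0.10 and 0.01. Unlike those of the factors, these calls were not refitted under the alternatives or without single arrays. Against the controls, the calls nearest the threshold were Rps6kb2 at the low dose (limma adjusted p = 0.0367) and Hbs1l at the high dose (0.0483). At the low dose the genes that rose were Ddx6, an RNA helicase of messenger storage bodies (1.80), Pdcd4, an inhibitor of eIF4A (1.27), Tpt1 (0.87), Akt1s1, a subunit of an mTOR complex (0.85), Ppp1r15b, which directs a phosphatase to eIF2 alpha (0.83), Impact, an inhibitor of the kinase encoded by Eif2ak4 (0.82), and the helicase gene Ddx3x (0.58). Those that fell were the kinase gene Rps6kb2 (-1.15), Abcf1, a partner of eIF2 (-0.99), the GTPase gene Gtpbp1 (-0.79), the mitochondrial elongation factor genes Tsfm (-0.78) and Tufm (-0.77), the release factor gene Gspt1 (-0.65), Larp1 (-0.57) and Mtor (-0.47). At the high dose Ddx6 (1.80), Tpt1 (0.99), Impact (0.78), the poly(A)-binding protein gene Pabpc1 (0.54) and the release factor gene Etf1 (0.45) were higher, and Mtor (-0.55) and the rescue factor gene Hbs1l (-0.35) lower. The probe set of Ddx3x has the suffix (_f) for shared oligonucleotides. Tpt1, Pabpc1 and Etf1 had control means of 7410, 6056 and 2813, in the range of the bright probe sets. Ppp1r15a, the stress-induced partner of Ppp1r15b, had values of 0.08 and 0.11 and was not called.

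The patterns that follow were not counted over all tested probe sets, so their counts have no background. Both the low-dose comparison with control and that between the doses use the same low-dose arrays, which partly builds in such patterns. By pattern, 7 factor probe sets fell at the low dose, were not called at the high dose against the controls and lay higher at the high than at the low dose. They were those of Eif2b2, Eif2b5 (dimmer probe set), Eif3d, Eif4e2 (brighter probe set), Eif6, Eef1akmt1 and Eef1d. The reverse, a rise at the low dose with a lower level at the high dose and no call against the controls, was seen for Eif2s2 (dimmer probe set) and Eif5. Called higher at both doses with no call between them were Eef1a1, Eef2 and Eif4a2, all bright, and called lower at both and higher at the high than at the low dose were the brighter probe sets of Eif1ax and Eif2b5. Of the 11 genes with more than 1 tested probe set, Eif2b5, Eif4b and Eif2s2 had probe sets with the same sign in each comparison and at least 1 call each. A call on 1 probe set stood beside a value of opposite sign on another for Eif1ax, Eif2d and Eif4e2 at the low and for Eif5b and Eif1ax at the high dose and between the doses.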

How the data were processed

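RNA of 12 mouse embryonic stem cell samples was hybridised to MG_U74Av2 arrays, 1 array a sample. The deposited values are linear intensity from MAS5, as the submitters' processing notes name it, and the trimmed means of the arrays (2% off each end) differed by 0.0195%, so the authors' scaling was kept. Affymetrix's own 66 control probe sets were not used. Each value was taken as log2(signal + 10.1), an offset at the 20th percentile of all signals, and probe sets with a mean log2 value above the 30th percentile were tested (8695). One limma model (limma 3.58.1, R 4.3.3, lmFit and eBayes with a variance trend, two-sided) was fitted over all 12 arrays, with Benjamini-Hochberg adjustment in each of 3 comparisons at 0.05, and was tested on simulated data. Gene symbols came from the platform annotation through Entrez identifiers (49 of 49 genes matched). Members and gene lists were chosen with earlier results of these data known. The text names every tested factor gene, and those of the other translation genes that were called. Alternatives covered scaling, offset, filter, variance trend, array weights, a block for replicate number, the groups in the fit and leaving out each array.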

Additional observations from a re-analysis of the deposited data

Results flagged for a closer look

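In 5 of 116 groups of 4 or 5 arrays (4.31%), 1 array stood apart from the rest of its group by the Dixon criterion, which chance gives in about 1 of 20 groups. High-dose replicate 2 was high for the brighter probe set of Eif2s2, at 823 beside 389 to 459.6 on the other high-dose arrays, and for the dimmer one of Eif1a, at 1162 beside 939.6 to 991. High-dose replicate 1 was low for the dimmer probe set of Eif2b5, at 639 beside 729.9 to 749.7. High-dose replicate 4 was low for the dim probe set of Eif3e, at 9.42 beside 42.7 to 64.5, where its own value is below the offset. Low-dose replicate 2 was low for Eif3l, at 3472 beside 3886 to 3967.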

How the results depend on the processing

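Of 52 calls, 26 were kept under every alternative that could be run: 9 of 16 at the low dose, 2 of 12 at the high dose and 15 of 24 between the doses. The high-dose count against control, 12, was 6 after quantile normalization (5 of them shared; 10.3% beside 10.5% of all probe sets), 7 without the filter (10.6% beside 7%), 5 without the variance trend (8.62% beside 8.88%) and 7 over members with a control mean of 2000 or below; over those members the low-dose count was 10 in place of 16. Leaving out 1 array gave 4 to 11 calls at the high dose, 12 to 18 at the low dose and 20 to 24 between the doses. Eif3k reversed at the high dose after quantile normalization, from 0.09 to -0.53; the cause was not tested. With the replicate number as a block the counts were 6 (all higher), 15 and 18, and 13 of the 52 calls were lost. Same-numbered arrays correlated at -0.178 to 0.148 in their deviations from the group means and differently numbered ones at -0.162 to 0.177. Of 11 arrays, 4 correlated best with an array of their own number. No clear pairing by number was seen, but with so few arrays these values cannot show whether same-numbered arrays share a day or culture. Signals near the offset, such as those of Eif5a and Eif4e, give fold values that understate changes.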
